A study of Caenorhabditis elegans with 12 samples.

Results

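Cysteine cathepsins are papain-type proteases of lysosomes and secretory vesicles, and the 10 genes described here are those members of the group in Caenorhabditis elegans that carry the symbols cpr-1, cpr-2, cpr-3, cpr-4, cpr-5, cpr-6, cpr-8, cpr-9, cpl-1 and cpz-1. They were chosen by gene symbol, with earlier results of these data known. They are the 10 rows of a count table of 46739 genes whose WormBase identifier has one of these symbols. All 10 had enough counts to be tested among the 18342 genes tested. Whole worms were sampled at day 10, and the 12 libraries hold 4 genotypes with 3 biological replicates apiece. N2 is the wild type, daf-2 carries a mutation in the insulin/IGF-1 receptor gene, spr-4;spr-3 (here the spr mutant) carries mutations in a pair of genes for zinc finger proteins found as suppressors of presenilin loss, and the combined mutant, spr-4;spr-3;daf-2, carries all of these. All strains are listed in the N2 background, worms were grown at 20 °C, and 100 worms of a strain were pooled for a sample. The sources used here name no alleles. The series concerns lifespan, neural excitation and the neuronal repressor REST, to which the SPR proteins are compared.

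Cathepsins are made as inactive proenzymes, are activated by cleavage in acidic compartments and cut other proteins with a catalytic cysteine. In nematodes the cathepsin B-like enzymes, named cpr, serve digestion in the intestine, where some are secreted into the lumen. Cathepsin L (cpl-1) is needed for yolk processing and embryonic development, and cathepsin Z (cpz-1) takes part in moulting. Endogenous inhibitors of these enzymes are the cystatins, in the worm cpi-1 and cpi-2.

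Library totals run from 11892808 counts in daf-2 replicate 2 to 46493665 in daf-2 replicate 3. Transcripts of daf-2, spr-3 and spr-4 were present in every library, with daf-2 at 35 to 38.7 CPM in N2 and 56.3 to 72.5 CPM in the strains that carry the daf-2 mutation, so transcript amounts do not show whether the proteins are lost. Levels are given in CPM, counts scaled to a common library total after TMM normalisation, which evens out library composition. Of the spr mutant libraries, replicate 1 was the lowest for 8 of the 10 cathepsin genes and replicate 2 the highest for 8 of them. In the combined mutant, replicate 2 was the highest for 9 of the 10. Since RNA was taken from whole worms, fewer cells of a type and less RNA per cell cannot be told apart. Calls rest on edgeR's quasi-likelihood test with a Benjamini-Hochberg adjusted p under 0.05 over all tested genes, and log2 fold changes are given ± their standard error. The spread of each gene is estimated over all genotypes together, so a standard error is not the spread of the compared groups alone. Leaving out a library of another genotype can therefore change a call.

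Cathepsin transcripts were most abundant in N2, where the 10 genes together made up 0.71, 0.735 and 0.882% of all counts in the 3 libraries. The share was 0.334 to 0.355% in daf-2, 0.282 to 0.519% in the spr mutant and 0.238 to 0.32% in the combined mutant, so the 3 N2 libraries lie above all of the other libraries. Compared per kilobase of exon in N2, cpr-1 had the highest mean level (1650 ± 585 CPM per kb, mean ± SD, n = 3), then cpz-1 (1440 ± 185), cpr-5 (1190 ± 172) and cpr-9 (1090 ± 172). Below these came cpr-4 (801 ± 58.6) and cpr-6 (707 ± 106), then cpr-3 (321 ± 45.8) and cpl-1 (290 ± 10.5). The low end was cpr-2 (47 ± 10.4) and cpr-8 (15.2 ± 2.8). Standard deviations of neighbours in this order overlap for cpr-1 and cpz-1, for cpz-1 and cpr-5, for cpr-5 and cpr-9, for cpr-4 and cpr-6, and for cpr-3 and cpl-1.

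The make-up of the family differed between genotypes. In N2 cpr-1 held 16 to 26.9% of the summed cathepsin level per kb, cpz-1 16.4 to 22.8% and cpr-5 14.4 to 18.5%. In daf-2 cpz-1 alone held 47.4 to 50.1%, while cpr-1 held 2.27 to 2.29% and cpr-5 1.52 to 1.87%. The level of cpz-1 itself was 1430 ± 184 CPM for N2 and 1440 ± 65.6 for daf-2, so its larger share went with lower levels of other members. In the combined mutant cpz-1 (34.4 to 42.1%) and cpr-9 (20.9 to 26.3%) were the leading genes, and cpr-5 held 0.553 to 0.778%. The spr mutant was the least even between its libraries, with cpr-1 at 7.54 to 22.9% and cpz-1 at 20.7 to 35.4%.

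**Figure D1:**
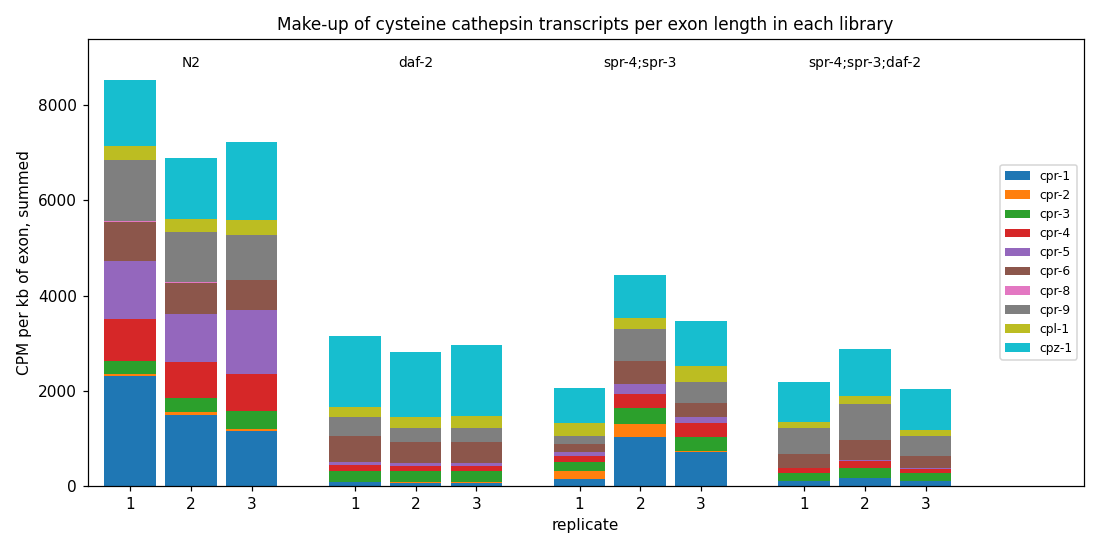
Stacked bars show, for each of the 12 libraries, the level of the 10 cathepsin genes in CPM per kb of exon. The N2 bars are the tallest, and cpr-1 and cpr-5, large in N2, are thin in both strains that carry the daf-2 mutation.

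The cathepsin B-like gene cpr-5 was lower in all 5 pairwise comparisons. Its level was 1480, 1200 and 1610 CPM for N2, 64.8, 63.6 and 54.3 for daf-2, 118.5, 245.1 and 145.2 for the spr mutant, and 14.5, 26.9 and 16.1 for the combined mutant. The 4 genotypes do not overlap, in the order combined mutant, daf-2, spr mutant, N2. Against N2 its log2 fold change was -4.55 ± 0.29 in daf-2 (edgeR adjusted p = 3.3e-08), -3.07 ± 0.27 in the spr mutant (edgeR adjusted p = 5.2e-06) and -6.22 ± 0.31 in the combined mutant (edgeR adjusted p = 2.7e-09). The fitted level in the combined mutant was 74.4-fold below that of N2.

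A similar order was seen for cpr-8, a gene of low level that also fell in all 5 pairwise comparisons. It gave 16.4, 13.7 and 19.8 CPM for N2, 1.21, 1.13 and 2.39 for daf-2, 3.28, 5.29 and 3.29 for the spr mutant, and 0.367, 0.236 and 0 for the combined mutant. No genotype overlaps another. The combined mutant values rest on 10, 9 and 0 counts, near the 3 counts used as a floor, so their exact ratio to N2 is imprecise (log2 fold change -6.46 ± 0.59, 95% interval -7.72 to -5.2, edgeR adjusted p = 1.2e-06). The falls in daf-2 (-3.33 ± 0.48, edgeR adjusted p = 0.00011) and in the spr mutant (-2.07 ± 0.44, edgeR adjusted p = 0.0083) rest on more counts.

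The genes cpr-5 and cpr-8 lie side by side on chromosome V of WBcel235, with cpr-5 at 1132598 to 1134036 on the minus strand and cpr-8 at 1134602 to 1139182 on the plus strand. They point away from each other, with 565 bases and no protein-coding gene between them. On the other side of cpr-5, 667 bases away, lies W07B8.4 (1130112 to 1131930), which was listed here from general knowledge as a papain relative. It had 3.32 ± 2.08 CPM for N2, 0.282 ± 0.106 for daf-2, 1.11 ± 0.212 for the spr mutant, and 0.247 ± 0.279 for the combined mutant (n = 3 each). It fell both in daf-2 (-3.46 ± 0.82, edgeR adjusted p = 0.0062) and in the combined mutant (-3.8 ± 0.83, edgeR adjusted p = 0.0033), each against N2. In the spr mutant against N2 it did not pass (-1.57 ± 0.73, edgeR adjusted p = 0.18). Its levels in daf-2 and in the combined mutant are near the 3 counts used as a floor, and its highest count in any library was 152. Among all members, 8 are on chromosome V, and cpr-1 (11975551 to 11976756) and cpr-9 (12003053 to 12004584) are 26.3 kb apart with 8 protein-coding genes between them. The others on V are cpr-2 (16532936 to 16534100), cpr-3 (15296834 to 15298700), cpr-4 (6614674 to 6615851) and cpl-1 (16592572 to 16595346). The exceptions are cpr-6 on X (6607207 to 6609045) and cpz-1 on chromosome I (2686640 to 2689429). No member overlaps the exons of another protein-coding gene, and cpr-4 shares 21 exonic bases with the piRNA gene 21ur-14330.

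The gut protease gene cpr-1 gave 2480, 1610 and 1250 CPM for N2, 77.7, 69 and 72.5 for daf-2, 167, 1100 and 761 for the spr mutant, and 109, 173 and 109 for the combined mutant. Both strains with the daf-2 mutation lie far below N2, and replicate 1 of the spr mutant lies with the combined mutant rather than with its own group. Against N2 it fell both in daf-2 (-4.6 ± 0.63, edgeR adjusted p = 0.00063) and in the combined mutant (-3.77 ± 0.6, edgeR adjusted p = 0.0016). In the spr mutant the difference from N2 did not pass (-1.4 ± 0.55, edgeR adjusted p = 0.14), though it passes without replicate 2 of that group (-1.97, edgeR adjusted p = 0.012). The fall from the spr to the combined mutant (-2.37 ± 0.57, edgeR adjusted p = 0.021) is not called without replicate 3 of the spr mutant or replicates 1 or 3 of the combined mutant (edgeR adjusted p = 0.061, 0.076 and 0.086). Against daf-2 the combined mutant was 1.78-fold higher without overlap, which did not pass (0.84 ± 0.54, edgeR adjusted p = 0.37) but does without replicate 1 of the spr mutant (edgeR adjusted p = 0.026).

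The secreted cathepsin B homologue cpr-4, known in the worm from signals that irradiated cells send to others, gave 976, 846 and 892 CPM for N2, 143, 129 and 124 for daf-2, 130, 353 and 323 for the spr mutant, and 120, 186 and 103 for the combined mutant. All mutant libraries lie below the N2 libraries, and the 3 mutant groups overlap one another. It fell in daf-2 (-2.78 ± 0.31, edgeR adjusted p = 2.1e-05), in the spr mutant (-1.75 ± 0.3, edgeR adjusted p = 0.0027) and in the combined mutant (-2.73 ± 0.31, edgeR adjusted p = 2.3e-05), each against N2. Between the combined mutant and daf-2 the log2 fold change was 0.04 (95% interval -0.58 to 0.67). Its fall from the spr to the combined mutant (-0.98 ± 0.29, edgeR adjusted p = 0.037) is lost without any one of 10 of the 12 libraries (edgeR adjusted p = 0.05 to 0.14) and is kept without replicate 1 of the spr or replicate 2 of the combined mutant.

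The cathepsin B-like gene cpr-9 gave 1760, 1450 and 1300 CPM for N2, 543, 403 and 398 for daf-2, 227, 924 and 609 for the spr mutant, and 750, 1040 and 590 for the combined mutant. N2 lies above every other library, and the spr mutant overlaps both daf-2 and the combined mutant. It fell in daf-2 (-1.75 ± 0.4, edgeR adjusted p = 0.0086). The fall in the spr mutant (-1.36 ± 0.39, edgeR adjusted p = 0.045) is lost without any one of 10 of the 12 libraries (edgeR adjusted p = 0.052 to 0.14), the exceptions being replicates 1 and 2 of the spr mutant. The combined mutant did not pass against N2 (-0.92 ± 0.39, edgeR adjusted p = 0.12), but does without replicate 1 or 2 of the spr mutant (edgeR adjusted p = 0.0048 and 0.033). Against daf-2 the combined mutant was 1.77-fold higher without overlap (0.83 ± 0.39, edgeR adjusted p = 0.2), a difference that passes without replicate 1 of the spr mutant (edgeR adjusted p = 0.018).

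Less change was seen in cpr-6, a cathepsin B-like gene, which gave 1040, 836 and 794 CPM for N2, 700, 574 and 567 for daf-2, 206, 595 and 366 for the spr mutant, and 373, 524 and 319 for the combined mutant. Against N2 it fell both in the spr mutant (-1.19 ± 0.29, edgeR adjusted p = 0.019) and in the combined mutant (-1.14 ± 0.29, edgeR adjusted p = 0.012). The first call is lost without replicate 1 of N2 or replicate 3 of the spr mutant (edgeR adjusted p = 0.075 and 0.066), and the second without replicate 1 of N2 or replicate 3 of the combined mutant (0.052 and 0.056). In daf-2 its level lay below N2 without overlap but did not pass (-0.54 ± 0.29, edgeR adjusted p = 0.22).

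The gene cpr-3 had the smallest ratio of highest to lowest library among the cathepsin B-like genes, with 385, 426 and 508 CPM for N2, 315, 313 and 324 for daf-2, 271, 461 and 408 for the spr mutant, and 219, 275 and 224 for the combined mutant. The combined mutant lies below N2 and daf-2 without overlap, and below the spr mutant but for replicate 1 of that group. It fell in the combined mutant against N2 (-0.88 ± 0.18, edgeR adjusted p = 0.002). The fall against the spr mutant (-0.67 ± 0.18, edgeR adjusted p = 0.018) is lost without replicate 2 or 3 of the spr mutant or replicate 1 or 3 of the combined mutant (edgeR adjusted p = 0.066 to 0.076). In daf-2 it was lower than N2 without passing (-0.47 ± 0.18, edgeR adjusted p = 0.071), and passes without replicate 1 or 2 of the spr mutant (0.02 and 0.036).

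The spr mutant stood out in cpr-2, a cathepsin B-like gene that gave 54.7, 58.1 and 37.4 CPM for N2, 11.1, 15 and 14.8 for daf-2, 162, 287 and 32.4 for the spr mutant, and 2.53, 5.38 and 3.99 for the combined mutant. Of the spr mutant libraries 2 lie above all N2 libraries and replicate 3 lies below them. The difference from N2 did not pass (1.68 ± 0.63, edgeR adjusted p = 0.13), but without replicate 3 of the spr mutant it does (2.16, edgeR adjusted p = 0.00037). Between the combined and the spr mutant it fell (-5.32 ± 0.76, edgeR adjusted p = 0.0021), as it did between the combined mutant and N2 (-3.64 ± 0.71, edgeR adjusted p = 0.0064). Differences between daf-2 and N2 (-1.88 ± 0.65, edgeR adjusted p = 0.078) and between the combined mutant and daf-2 (-1.76 ± 0.68, edgeR adjusted p = 0.13) did not pass, although no libraries of these groups overlap. Both pass without replicate 2 or 3 of the spr mutant (edgeR adjusted p = 1e-04 to 0.0061 for the first and 0.00083 to 0.019 for the second).

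**Figure D2:**
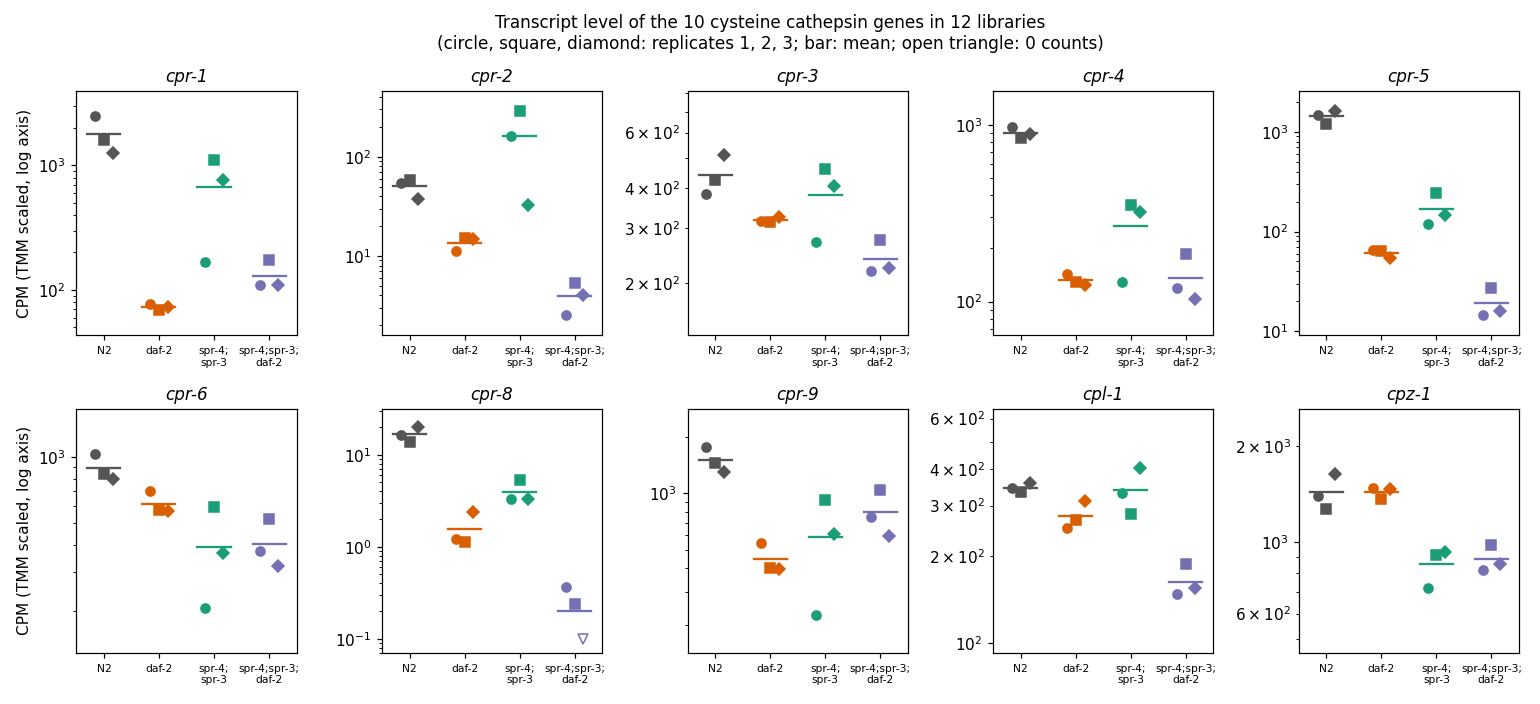
Each panel plots 1 cathepsin gene, with CPM on a log axis, the 3 replicates of each genotype as symbols and their mean as a bar. The panels for cpr-5 and cpr-8 show 4 separate genotypes, and those for cpr-1, cpr-2, cpr-4, cpr-6 and cpr-9 show wide spread in the spr mutant.

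The cathepsin L gene cpl-1 was called lower only in the strain that combines both kinds of mutation. It gave 344, 333 and 358 CPM for N2, 250, 267 and 310 for daf-2, 331, 280 and 406 for the spr mutant, and 148, 188 and 155 for the combined mutant. The combined mutant lies below every other library. It fell against N2 (-1.07 ± 0.15, edgeR adjusted p = 9.7e-05), against the spr mutant (-1.05 ± 0.15, edgeR adjusted p = 0.00026) and against daf-2 (0.594-fold, edgeR adjusted p = 0.0041). Neither daf-2 (-0.32 ± 0.15, 95% interval -0.64 to 0, edgeR adjusted p = 0.15) nor the spr mutant (-0.02 ± 0.15, interval -0.35 to 0.3, edgeR adjusted p = 0.94) passed against N2.

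The cathepsin Z gene cpz-1 followed the spr genotype. It gave 1390, 1270 and 1630 CPM for N2, 1480, 1360 and 1470 for daf-2, 723, 911 and 932 for the spr mutant, and 822, 980 and 854 for the combined mutant. N2 and daf-2 overlap, the spr and the combined mutant overlap, and the 2 pairs are apart. It fell in the spr mutant against N2 (-0.74 ± 0.15, edgeR adjusted p = 0.0055) as well as in the combined mutant against daf-2 (-0.7 ± 0.15, edgeR adjusted p = 0.0057). Differences linked to daf-2 were 0.01 with intact spr genes (95% interval -0.31 to 0.32) and 0.05 without them (interval -0.27 to 0.36), on the log2 scale, and the sign of both turns with the scaling or the libraries used.

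**Figure D3:**
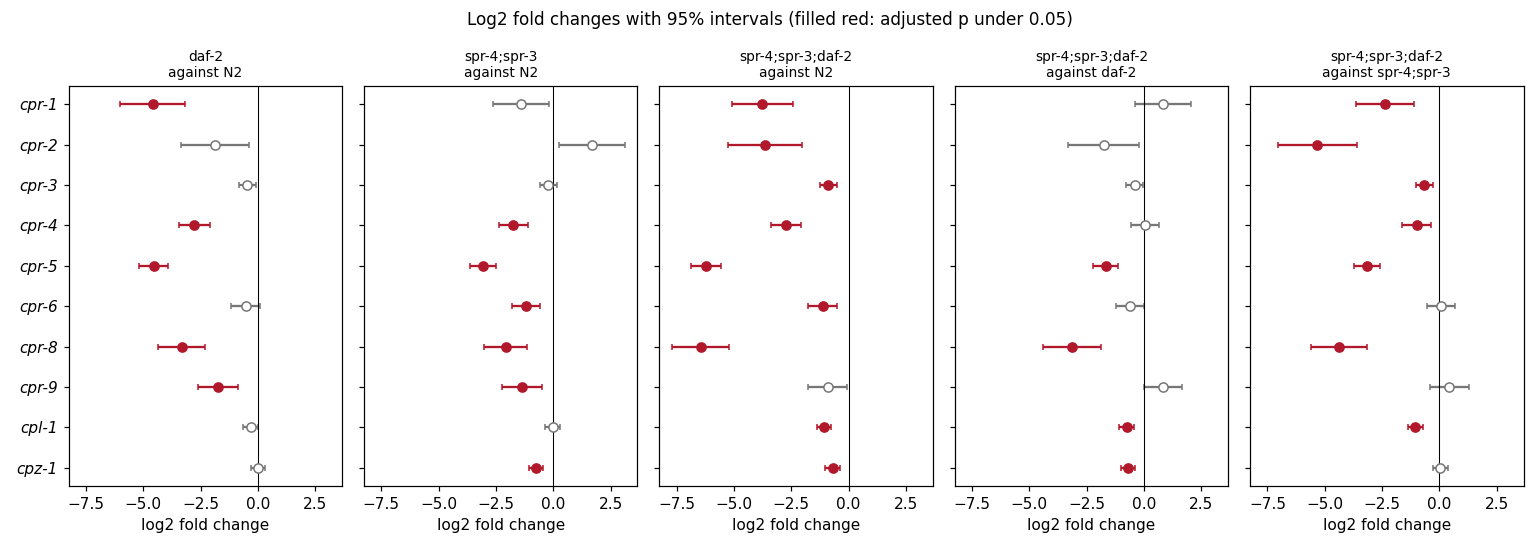
Each panel plots the log2 fold changes of the 10 genes in 1 pairwise comparison, with 95% intervals, filled where the adjusted p is under 0.05. All filled points lie below 0, and the combined mutant against N2 has the most of them, 9.

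Counted over the family, 5 of the 10 genes were called in daf-2 against N2, all of them lower, where 20.6% of all tested genes were called in either direction (2015 lower and 1757 higher). The median log2 fold change was -1.81 over the 10 genes and 0.06 over all tested genes. In 9 of the 10 the 3 libraries of daf-2 lie wholly apart from those of N2, as they do for 39.9% of all tested genes. In the spr mutant against N2, 6 were called and all fell (background 11.7%, 1211 lower and 930 higher), with a median of -1.28 beside 0.04, and 7 were apart (background 28.5%). In the combined mutant against N2, 9 were called and all fell (background 22.2%, 2081 lower and 1987 higher), with a median of -1.93 beside 0.04, and 10 were apart (background 38.9%). These comparisons share the N2 libraries, and the 10 genes were chosen with earlier results of these data known.

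Between the combined mutant and daf-2, 4 genes were called and all fell (background 13.4%, 1220 lower and 1241 higher), with a median of -0.65 beside -0.01. In a fit of only the libraries of these genotypes, which leaves out both the N2 and the spr mutant libraries, 9 of the 10 are called, while calls over all genes go from 2461 to 3247. The like fit of daf-2 against N2 calls 8 of the 10, with 4265 calls over all genes in place of 3772. The 9 include cpr-1 (0.84, edgeR adjusted p = 0.0048) and cpr-9 (0.83, edgeR adjusted p = 0.012), both higher in the combined mutant. Between the combined and the spr mutant, 7 were called and all fell (background 14.9%, 1452 lower and 1287 higher), with a median of -1.02 beside 0.01, and 4 were apart (background 30.7%). This count drops to 4 (cpr-2, cpr-5, cpr-8 and cpl-1) without replicate 3 of the spr mutant, or without replicate 1 or replicate 3 of the combined mutant.

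Whether loss of spr-4 and spr-3 had a different effect with the daf-2 mutation than without it was tested as the interaction, the log2 fold change of the combined mutant against daf-2 minus that of the spr mutant against N2. It passed for 4 of the 10 genes, 3 positive and 1 negative, where 8.32% of all tested genes passed (897 positive and 629 negative). For cpr-4 the value was 1.79 ± 0.41 (edgeR adjusted p = 0.018), made of a fall with daf-2 intact and a difference of 0.04 in daf-2. For cpr-5 it was 1.41 ± 0.36 (edgeR adjusted p = 0.024), with a fall in both backgrounds that was smaller in daf-2 (-1.67 ± 0.26 against -3.07 ± 0.27). For cpr-9 it was 2.18 ± 0.55 (edgeR adjusted p = 0.034), with -1.36 ± 0.39 when daf-2 is intact and 0.83 ± 0.39 in daf-2. For cpl-1 it was -0.73 ± 0.22 (edgeR adjusted p = 0.047), the fall being seen in daf-2.

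These interaction calls depend on single libraries. That of cpr-4 is lost without replicate 3 of daf-2 (edgeR adjusted p = 0.05 after rounding) and kept without each of the other 11. That of cpr-5 is lost without any of 5 libraries (replicates 1 and 3 of N2, 3 of daf-2, 3 of the spr mutant and 2 of the combined mutant, edgeR adjusted p = 0.057 to 0.069). That of cpr-9 is lost without any of 8 (edgeR adjusted p = 0.06 to 0.087) and that of cpl-1 without any of 10 (0.06 to 0.14). For cpr-9 the 4 not needed are replicate 1 of daf-2, replicates 1 and 2 of the spr mutant and replicate 3 of the combined mutant, and for cpl-1 the 2 are replicate 2 of the spr and of the combined mutant. Over the 12 omissions the number of genes called ran from 0, without replicate 3 of daf-2, to 7, without replicate 2 of the spr mutant. The remaining genes did not pass, among them cpr-2 (-3.44 ± 0.93, edgeR adjusted p = 0.057, passing without replicate 2 or 3 of the spr mutant, 0.014 and 0.00021) and cpr-1 (2.23 ± 0.77, edgeR adjusted p = 0.11, passing without replicate 1 or 2 of the spr mutant, 0.011 and 0.0086). For cpz-1 the interval runs from -0.4 to 0.49.

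**Figure D4:**
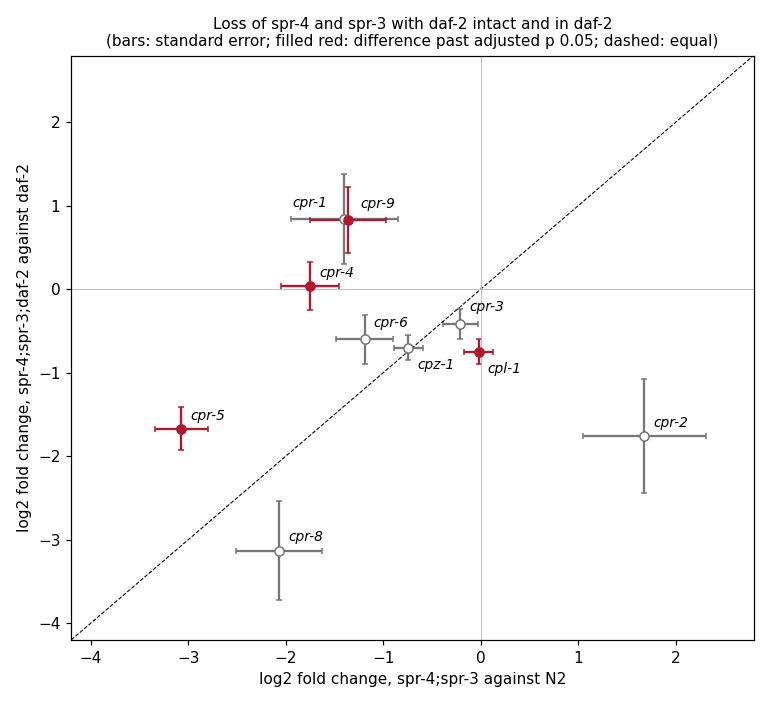
The log2 fold change on loss of spr-4 and spr-3 is plotted with daf-2 intact (horizontal axis) and in daf-2 (vertical axis), with standard errors, for each cathepsin gene. Filled points, cpr-4, cpr-5, cpr-9 and cpl-1, differ between the backgrounds past an adjusted p of 0.05, and cpz-1 lies by the dashed line of equal effect.

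Genes for inhibitors of these enzymes did not fall with them in daf-2 against N2. The cystatin gene cpi-1 had 7010 ± 884 CPM for N2, 12700 ± 3610 for daf-2, 5160 ± 2540 for the spr mutant, and 11800 ± 2120 for the combined mutant (n = 3 each). It rose in daf-2 relative to N2 (0.86 ± 0.29, edgeR adjusted p = 0.046) and in the combined against the spr mutant (1.19 ± 0.29, edgeR adjusted p = 0.012). The other cystatin gene, cpi-2, had 656 ± 109, 816 ± 134, 466 ± 86.7 and 739 ± 125 CPM in the same order, and rose in the combined against the spr mutant (0.67 ± 0.18, edgeR adjusted p = 0.022). Both cystatin genes were lower in the spr mutant than in N2 without passing. The values were -0.44 ± 0.29 for cpi-1 (edgeR adjusted p = 0.35) and -0.49 ± 0.18 for cpi-2 (edgeR adjusted p = 0.09).

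Other genes listed as papain relatives went in both directions. Of 15 such genes 13 were tested, and in daf-2 against N2 1 rose and 2 fell, in the spr mutant against N2 0 and 3, and in the combined mutant against N2 2 and 6. In the combined mutant against daf-2 1 rose and 4 fell, and against the spr mutant 2 rose and 1 fell. For this list and those below, the shares called over all tested genes are the same as given above. They were 20.6% in daf-2, 11.7% in the spr mutant and 22.2% in the combined mutant, each against N2. For the combined mutant they were 13.4% against daf-2 and 14.9% against the spr mutant. The median log2 fold change in daf-2 against N2 was 0.04 over these 13 genes, beside -1.81 over the 10 cathepsins. The cathepsin Z gene cpz-2 had 194 ± 13.9 CPM for N2, 199 ± 20.8 for daf-2, 144 ± 17.8 for the spr mutant, and 111 ± 10.5 for the combined mutant. The combined mutant had less of it than N2 (-0.81 ± 0.14, edgeR adjusted p = 0.00042) and than daf-2 (-0.85 ± 0.14, edgeR adjusted p = 0.00074). The cathepsin F-like gene tag-196 had 177 ± 27, 210 ± 4.85, 233 ± 29.5 and 132 ± 14 CPM in the same order, and its interaction was negative, as for cpl-1 (-1.06 ± 0.2, edgeR adjusted p = 0.0055). Y71H2AM.25 moved the other way, from 3.2 ± 0.315 CPM for N2 to 7.23 ± 1.41 for daf-2 and 10.6 ± 3.16 for the combined mutant (edgeR adjusted p = 0.0044 and 0.00018).

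Aspartic proteases, the other main class of acidic proteases in gut and lysosome, were mixed. Of 14 tested genes 4 rose and 5 fell in daf-2 against N2, 0 and 1 for the spr mutant against N2, 1 and 7 in the combined mutant against N2, 0 and 5 in the combined mutant against daf-2, and 3 and 5 in the combined against the spr mutant. The intestinal gene asp-1 resembled cpr-1 in its levels, with 339 ± 81.6 CPM for N2, 20.9 ± 3.74 for daf-2, 181 ± 94.1 for the spr mutant, and 23.5 ± 8.54 for the combined mutant. The gene asp-17 fell from 53.1 ± 6.53 in N2 to 3.38 ± 0.274 in daf-2 (-3.96 ± 0.48, edgeR adjusted p = 0.00015). In the opposite direction, asp-9 rose from 1.83 ± 0.808 to 23.7 ± 2.26 CPM (3.7 ± 0.35, edgeR adjusted p = 1.6e-06) and asp-8 from 1.64 ± 0.866 to 11.8 ± 1.68 (2.85 ± 0.46, edgeR adjusted p = 0.00033).

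Of 27 genes for other lysosomal enzymes and membrane proteins, 2 rose and 5 fell in daf-2 against N2, 1 and 5 for the spr mutant against N2, and 2 and 5 in the combined mutant against N2. The combined mutant against daf-2 had 0 and 5, and against the spr mutant 3 and 5. The median in daf-2 against N2 was -0.19. The gene nuc-1, for the acid nuclease DNase II, fell in all 3 strains against N2 (180 ± 30.6 CPM for N2, 66 ± 5.39 for daf-2, 59.8 ± 25.3 for the spr mutant, and 38.3 ± 4.08 for the combined mutant). The lysosomal membrane gene lmp-1 had 174 ± 7.89, 190 ± 4.98, 185 ± 23.2 and 151 ± 10.7 CPM in the same order. Also in this list, gba-4 fell from 20 ± 14.2 CPM in N2 to 0.527 ± 0.0931 in daf-2 (-5.19 ± 0.93, edgeR adjusted p = 0.0025). In the combined mutant it was at 0.648 ± 0.259 CPM (-4.92 ± 0.89 against N2, edgeR adjusted p = 0.0026).

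Of 7 regulator genes tested, 1 rose and 1 fell in daf-2 against N2, and 0 and 1 for the spr mutant against N2. In the combined mutant 0 rose and 2 fell against N2, 0 and 2 against daf-2, and 0 and 1 against the spr mutant. The gene that rose in daf-2 was daf-16 (0.5 ± 0.13, edgeR adjusted p = 0.01). Among the 7 regulator genes, hlh-30 (the worm TFEB) had 141 ± 8.99 CPM for N2, 132 ± 23.9 for daf-2, 103 ± 18.9 for the spr mutant, and 109 ± 5.28 for the combined mutant, and passed in no comparison. The intestinal GATA factor gene elt-2 did not pass in any either, with 10.6 ± 1.15 CPM in N2 and 7.86 ± 0.87 in the combined mutant. Its relative elt-7 fell in the spr mutant against N2 (-1.05 ± 0.16, edgeR adjusted p = 0.00097) as well as in the combined mutant against daf-2 (-0.7 ± 0.16, edgeR adjusted p = 0.0093). It fell in the combined mutant against N2 too (-0.89 ± 0.16, edgeR adjusted p = 0.00091). The cathepsin genes cpr-5, cpr-8 and cpz-1 were called lower in all of these comparisons. The zinc finger gene pqm-1 fell in daf-2 relative to N2 (-0.74 ± 0.17, edgeR adjusted p = 0.005) and in the combined against the spr mutant (-1.59 ± 0.17, edgeR adjusted p = 1.9e-05). It also fell in the combined mutant against daf-2 (-0.77 ± 0.17, edgeR adjusted p = 0.0072), and its interaction was negative (-0.85 ± 0.24, edgeR adjusted p = 0.038).

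Intestine markers fell with the cathepsins in the strains that carry the daf-2 mutation, and fewer of them were called in the spr mutant. Of 19 marker genes without a protease (elt-2 and elt-7 among them), 0 rose and 10 fell in daf-2 against N2, 0 and 3 for the spr mutant against N2, and 0 and 14 in the combined mutant against N2, with medians of -0.77, -0.4 and -0.95. In the combined mutant against daf-2 2 rose and 4 fell, and against the spr mutant 0 and 8. Their summed level was 1950 to 2640 CPM for N2, 752 to 816 for daf-2, 1240 to 1840 for the spr mutant and 586 to 767 for the combined mutant, and none of the 19 was at 0 in any library. Within the spr mutant, replicate 1, the lowest for most cathepsins, had the lowest sum (1240) and replicate 2 the highest (1840). The same order of these replicates held for the sums of pharynx, epidermis, coelomocyte and yolk genes. Yolk genes were at 9960 in replicate 1, 31100 in replicate 2 and 13400 in replicate 3, while pharynx markers differed little (141, 149 and 148). This order did not hold for oocyte and embryo (22200, 28800 and 21500), muscle (3190, 5960 and 2980), neuron (657, 663 and 795) or sperm markers (128, 72.4 and 56.3). The part of these markers in the cathepsin differences was not tested.

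Other tissues moved too. Of 20 oocyte and embryo markers, 0 rose and 14 fell in daf-2 against N2. For the combined mutant 11 rose and 0 fell against daf-2, 2 and 8 against N2, and 0 and 5 against the spr mutant. The gene cpl-1 was called lower in each of these comparisons of the combined mutant. In the spr mutant against N2 3 of the markers rose and 2 fell, with a median log2 fold change of 0.08. The sum of these markers, which the most abundant genes weigh on most, was 33400 to 35900 CPM for N2, 17800 to 21900 for daf-2, 21500 to 28800 for the spr mutant and 19100 to 21700 for the combined mutant. The 12 muscle markers summed to 7020 to 7280 CPM in N2, 4920 to 6130 in daf-2, 2980 to 5960 in the spr mutant and 8820 to 9470 in the combined mutant. Counted by gene, 4 rose and 0 fell in daf-2 against N2 (median 0.39, opposite to the sum), 1 and 4 in the spr mutant against N2, 1 and 0 in the combined mutant against daf-2 (median -0.02), and 4 and 0 in the combined against the spr mutant. The 4 coelomocyte markers (scavenger cells with large lysosomes) summed to 197 to 207 CPM in N2, 129 to 165 in daf-2, 92.5 to 164 in the spr mutant and 189 to 195 in the combined mutant. Both lists have their lowest mean sum in the spr mutant. Sums over pharynx, epidermis, neuron and sperm markers overlap between N2 and daf-2, while the combined mutant lies below N2 for epidermis (146 to 190 against 239 to 355 CPM), neuron (624 to 699 against 711 to 795) and sperm (35.8 to 50.5 against 51 to 70.7). Yolk protein genes, whose product cathepsin L processes, and the yolk receptor gene summed to 46700 to 71800 CPM for N2, 23900 to 36600 for daf-2, 9960 to 31100 for the spr mutant and 26800 to 29700 for the combined mutant. Of these 7 genes 2 fell in daf-2 (vit-5 and the receptor gene rme-2) and 4 in the spr mutant, both against N2. For the combined mutant 0 rose and 1 fell against N2, 1 and 0 against daf-2 (rme-2), and 2 and 0 against the spr mutant. The gene rme-2 is among the oocyte and embryo markers as well. The part of these lists in the cathepsin differences was not tested.

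**Figure D5:**
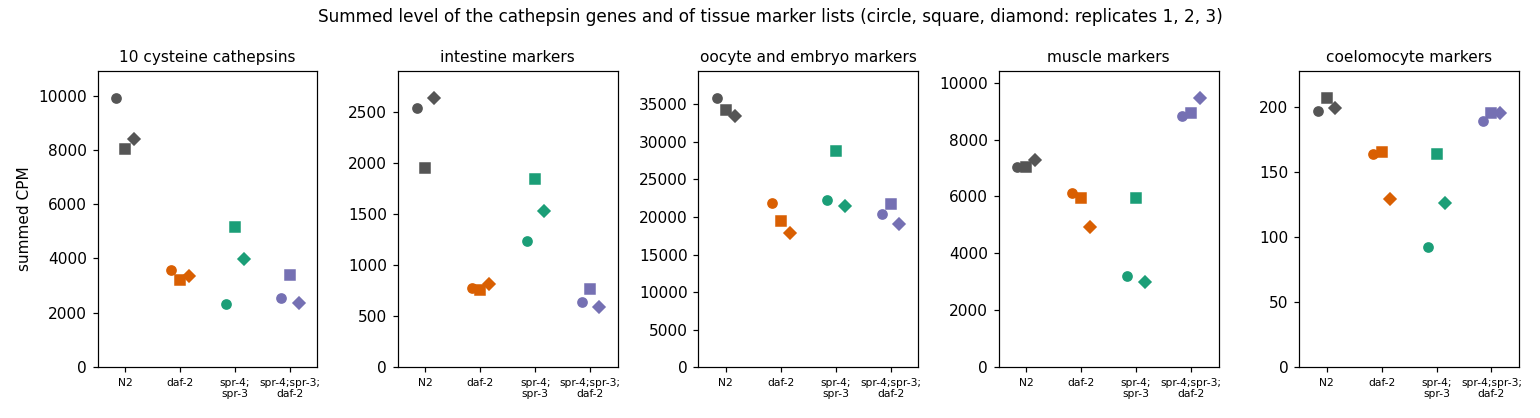
Each panel plots a summed level in CPM for the 12 libraries, for the 10 cathepsin genes and for 4 lists of tissue markers. Cathepsins and the intestine, oocyte and embryo, and coelomocyte markers are highest in N2, the last by a small margin, and muscle markers are highest in the combined mutant. Replicate 1 of the spr mutant is the lowest of its group for cathepsins, intestine markers and coelomocyte markers.

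The genes whose levels ran most like each cathepsin gene over the 12 libraries were found by Pearson correlation of log2 CPM. These correlations describe 12 points that share 4 genotypes and are given with no test. For cpr-1 the closest were the saposin-like gene spp-18 (r = 0.99), T01D3.6 (0.985) and the glucuronosyltransferase gene ugt-18 (0.982). For cpr-4 they were the lysozyme gene lys-4 (0.979), the galectin gene lec-8 (0.978) and nspc-16 (0.975), and for cpr-5 ZC239.22 (0.99), F54E2.1 (0.981) and the lysozyme gene ilys-2 (0.981). The nearest to cpr-6 was Y40H7A.10 (0.975), a gene of the list of papain relatives, with 106 ± 16.6 CPM for N2, 67.3 ± 2.81 for daf-2, 34 ± 18.1 for the spr mutant, and 41.1 ± 7.65 for the combined mutant. For cpr-8 the nearest was pqn-92 (0.984), for cpr-9 the syntaxin gene syx-16 (0.969), for cpr-3 nspg-12 (0.948) and for cpr-2 WBGene00013644 (0.907). For cpl-1 they were F45E1.4 (0.968), the peroxisomal membrane gene pxmp-4 (0.962) and the fatty acid and retinol binding gene far-6 (0.961), and for cpz-1 D1086.2 (0.971).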

How the data were processed

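The authors deposited raw counts per gene, made with STAR (no version stated) and featureCounts 1.5.1 on WBcel235, per the submitters' processing notes. Per the labels, cDNA came from 2 ng of RNA with SMART-Seq v4 reagents, which mark neither strand nor molecule. Annotation release, strand setting and handling of multiply mapping reads are not stated in the sources. Exon lengths and coordinates come from Ensembl annotation of WBcel235. Nothing ties replicates to separate cultures beyond their label as biological replicates, so p-values measure the spread between these samples. No library repeats another (chi-square over degrees of freedom, between replicates, 21.6 to 162).

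Low genes were removed with filterByExpr (a minimum count of 10 and total of 15), and TMM-scaled counts of the 12 libraries were fitted with 1 mean for each genotype in edgeR 4.0.16 (R 4.3.3, robust quasi-likelihood; common biological coefficient of variation 0.291). Standard errors are log2 fold changes over the root of F, and intervals are 95%. The 6 comparisons are the 5 pairwise ones and the interaction. Correlations used a prior count of 2. Alternatives were DESeq2 1.42.0 and its size factors, limma-voom 3.58.1 with quality weights, no filter, fits of only the compared genotypes, a replicate block and leaving out each library. Named genes are all 10 members, up to 4 of each list by adjusted p, and the 3 nearest genes by correlation, beside lmp-1, hlh-30 and elt-2, named for their function after values were seen. The members and lists were chosen with earlier results of these data known. Papain relatives were listed from general knowledge.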

Additional observations from a re-analysis of the deposited data

Results flagged for a closer look

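For 4 cathepsin genes the effect of losing spr-4 and spr-3 differed between the background with daf-2 intact and the daf-2 mutant, by the interaction test of edgeR. The difference in log2 fold change was 1.79 for cpr-4, 1.41 for cpr-5, 2.18 for cpr-9 and -0.73 for cpl-1 (edgeR adjusted p = 0.018, 0.024, 0.034 and 0.047). Leaving out 1 library moves the adjusted p from 0.004 to 0.05 for cpr-4, from 0.00097 to 0.069 for cpr-5, from 0.0013 to 0.087 for cpr-9 and from 0.013 to 0.14 for cpl-1. In cpr-4 all 3 spr mutant libraries lie below the 3 of N2, while those of the combined mutant (103 to 186 CPM) span those of daf-2 (124 to 143). In cpl-1 the 3 combined mutant libraries lie below the 3 of daf-2, while those of the spr mutant (280 to 406) span those of N2 (333 to 358).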

How the results depend on the processing

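Of 60 results (10 genes in 6 comparisons) 35 were called, and 25 of these kept their call and direction under all 18 alternatives. The other 10 lost it under at least 1, and 0 turned direction. Fits of only the compared genotypes gave 8 genes called instead of 5 in daf-2 against N2, 9 instead of 4 in the combined mutant against daf-2, and 4 instead of 7 in the combined against the spr mutant, with calls over all genes of 4265 instead of 3772, 3247 instead of 2461 and 1862 instead of 2739. With no low count filter 8 were called in the combined mutant against daf-2 (2980 over all genes). Some adjusted p-values became extremely small in that setting. For cpr-2 in the interaction the value was 5.1e-40, and for cpr-1 in daf-2 against N2 it was smaller still. The cause was not tested. Leaving out 1 library gave 4 to 7 in the combined against the spr mutant and 0 to 7 in the interaction. The replicate numbers do not pair the samples (correlation of deviations of same-numbered libraries -0.0667 to 0.064, 0 of 18 pairs over 0.1). With the number as a replicate block 5, 4, 6, 7, 9 and 3 genes were called in the order of the 6 comparisons as processed (daf-2 against N2, combined mutant against daf-2, spr mutant against N2, combined against spr mutant, combined mutant against N2, interaction), only cpl-1 in the interaction being lost. Over all genes the block gave 3417, 2110, 1773, 2357, 3651 and 1151 calls instead of 3772, 2461, 2141, 2739, 4068 and 1526.

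Signs turned only in results that were not called. For cpz-1 in daf-2 against N2 the log2 fold change was -0.01 with DESeq2 size factors and with DESeq2, 0 with limma-voom, and -0.08 to 0.11 with 1 library left out. For cpr-4 in the combined mutant against daf-2 it was -0.07 with limma-voom and -0.25 to 0.21 with 1 library left out. Leaving out 1 library gave -0.19 to 0.06 for cpl-1 in the spr mutant against N2, -0.26 to 0.52 for cpr-6 and -0.06 to 0.12 for cpz-1 in the combined against the spr mutant, and -0.37 to 0 for cpr-3 and -0.06 to 0.13 for cpz-1 in the interaction. Over all genes, limma-voom called 3968 instead of 2461 in the combined mutant against daf-2, fits of only the compared genotypes 983 instead of 2141 in the spr mutant against N2, and DESeq2 2349 instead of 1526 in the interaction. Without 1 library these were 1376 to 2841, 943 to 3139 and 772 to 2505, and 1582 to 3303 in the combined against the spr mutant. Depth limits cpr-8 in the combined mutant, which rests on 19 counts in all.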
